A study of Mus musculus with 6 samples.

Results

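The gene set described here holds 48 genes of lysophospholipid and phosphatidylcholine metabolism, chosen by gene symbol, of the 18046 genes listed for each library. The set covers enzymes that add acyl chains to lysophospholipids, enzymes of the choline and ethanolamine pathways, transporters of choline and lysophosphatidylcholine, and enzymes that break these lipids down. All 48 symbols were found. The libraries came from mouse naive CD4+ T cells (strain C57BL/6, spleen, age 3 weeks) that were stimulated through CD3 and CD28 for 3 days in culture under Th1-polarizing conditions. Of the 6 libraries, 3 were from cells given a vehicle that the labels do not name and 3 from cells given LPC at 20 µM. LPC is the usual short name of lysophosphatidylcholine, which the labels do not spell out. The comparison asks how these genes were expressed when the agent was present during activation, and no level of a lipid or protein was measured.

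Phosphatidylcholine is the main phospholipid of most animal cell membranes. Cells make it from choline through phosphocholine and CDP-choline (the Kennedy pathway), and a parallel branch makes phosphatidylethanolamine from ethanolamine. Phosphatidylethanolamine can be methylated to phosphatidylcholine, a route best known from liver. A phospholipase A removes an acyl chain from phosphatidylcholine and leaves lysophosphatidylcholine, which acyltransferases turn back into phosphatidylcholine in the Lands cycle. Lysophosphatidylcholine can also lose its remaining chain to a lysophospholipase, or lose choline to autotaxin, which yields the signalling lipid lysophosphatidic acid.

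Expression was given as FPKM, a number of fragments scaled for transcript length and library size, so levels of different genes can be set side by side. Of the 18046 genes, 10138 reached an FPKM of 1 in at least 3 libraries and were tested with limma on log2(FPKM + 1). Every log2 change below is LPC minus vehicle on that scale, which understates changes where levels are low. A gene is said to have risen or fallen where its Benjamini-Hochberg adjusted p over all tested genes was under 0.05. Nothing in the labels tells if the 3 replicates of a condition were different mice or dishes. The p-values therefore measure the spread between these libraries, which may be technical. In bulk RNA, fewer cells of a type and less RNA per cell cannot be told apart.

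The depth estimated from the low values was 19.00 to 19.50 M reads per library. LPC replicate 3 lay farthest out on the first principal component and listed the fewest genes at 0 (17.9%, where the others had 19.4% to 20.2%). Its summed FPKM was 641026, against 556561 to 588274 in the others, and the main fit did not rescale libraries. Of the LPC libraries, replicate 2 lay nearest the vehicle libraries on that component. Without LPC replicate 3, the calls of Pemt, Pcyt2, Slc44a1 and Cept1 below held and that of Lclat1 did not. The call of Enpp2 held too, but Enpp2 passed the filter through its LPC libraries alone. Over 10009 genes of the same 6 libraries, transcript GC share correlated with the log2 change at r = 0.24 and log2 transcript length at r = -0.22, given as a description. The 8 T cell markers summed to 1704 to 1751 FPKM with vehicle and 1675 to 1768 with LPC. Among them Cd4 was at 185 to 205 FPKM with vehicle and 144 to 177 with LPC. These libraries did not overlap, but Cd4 did not pass (log2 change -0.27, limma adjusted p = 0.0875). Of the 8 markers, 7 did not pass and Trat1 fell (26.6 to 30.1 FPKM with vehicle, 13.0 to 19.8 with LPC, limma adjusted p = 0.0019). Cd8a was at most 0.33 FPKM, although Cd8b1 was listed at 13.35 to 14.19 FPKM with vehicle and 10.57 to 12.55 with LPC. Cd8b1 did not pass (log2 change -0.22, limma adjusted p = 0.142). The 6 B cell markers were each under 1 FPKM. The 5 natural killer cell markers summed to 6.31 to 8.78 FPKM with vehicle and 5.21 to 5.50 with LPC. Most of this was Eomes, which fell (limma adjusted p = 0.0146), while Ncr1 and Klra8 were at 0 in every library. The 6 dendritic cell markers summed to 2.87 to 2.94 FPKM with vehicle and 1.30 to 1.64 with LPC, and of them Zbtb46 fell (adjusted p = 0.00139) and the other 5 were under 1 FPKM. Of the 7 macrophage and monocyte markers, Cd68 (2.99 to 5.40 FPKM) did not pass and the other 6 were under 1 FPKM. The part of other cell types in the results was not tested.

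Of the 48 genes, 39 were tested, and 3 rose, 3 fell and 33 did not pass. Autotaxin (Enpp2), Pemt and Pcyt2 rose, and the choline transporter Slc44a1, the phosphotransferase Cept1 and the lysocardiolipin acyltransferase Lclat1 fell. The 6 genes were 15.4% of those tested, against 13.7% of all tested genes (5.82% higher, 7.91% lower), so the share called was near the background. The median log2 change was -0.08, against -0.04 over all tested genes. Vehicle and LPC libraries did not overlap for 14 of the 39 (35.9%), 5 higher and 9 lower with LPC, against 34.5% of all tested genes (13.7% higher, 20.7% lower). The labels' own rule adds a change over 2-fold, which on the log2(FPKM + 1) scale was met by 0.197% of all tested genes and by 0 of these 39. That scale understates the change of Enpp2, whose ratio of mean FPKM was 3.27 and so over 2-fold. With an unadjusted limma p under 0.05, 4 of the 39 were higher and 8 were lower. Over all 10138 tested genes, 1237 were higher and 1810 lower at that level. Later counts at an unadjusted p in the main fit are to be read beside these numbers.

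**Figure D1:**
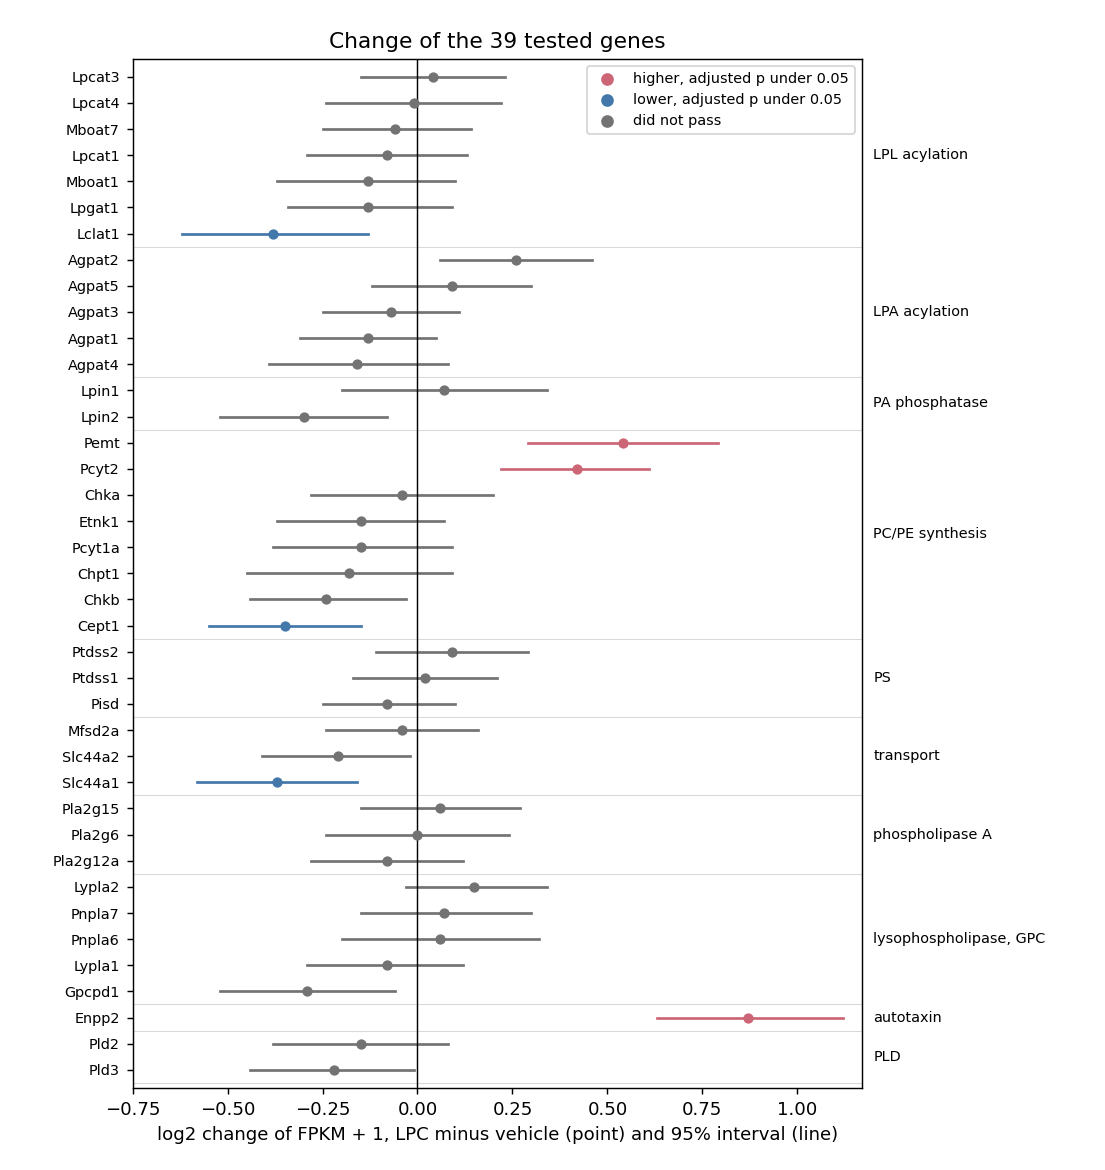
Log2 change of FPKM + 1, LPC minus vehicle, of the 39 tested genes in 10 groups by role, each point with its 95% interval from limma. Red points rose (Pemt, Pcyt2, Enpp2), blue points fell (Lclat1, Cept1, Slc44a1) and grey points did not pass. Abbreviations on the right are LPL for lysophospholipid, LPA for lysophosphatidate, PA for phosphatidate, PC and PE for phosphatidylcholine and phosphatidylethanolamine, PS for phosphatidylserine, GPC for glycerophosphocholine and PLD for phospholipase D.

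The count of genes that fell depended on single libraries more than the count that rose. It was 0 without vehicle replicate 1 and 0 without vehicle replicate 2, where 5 and 4 genes were lower at an unadjusted limma p under 0.05. Over all tested genes, 1332 and 1230 were lower at that level in those fits. Leaving out vehicle replicate 3 gave 1 gene of the set that fell, as did leaving out LPC replicate 1. With LPC replicate 3 left out the count was 2, and with LPC replicate 2 left out 5. The count that rose ranged from 2 to 4 over the same fits. Over all tested genes the number called likewise ranged from 513 without vehicle replicate 1 to 2026 without LPC replicate 2.

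Levels spread widely within the set. Lypla2, a lysophospholipase that also removes acyl chains from proteins, had the highest mean over the 6 libraries (123 FPKM). In all, 6 genes had a mean of 50 FPKM or more, 16 a mean of 10 to 50, 17 a mean of 1 to 10 and 9 a mean under 1. Those 9 missed the filter and were not tested. Among them, Abhd3, a phospholipase of medium-chain phosphatidylcholines, was listed at 0 in every library. Lpcat2, an LPC acyltransferase best known from myeloid cells, reached at most 0.02 FPKM. The glycerophosphodiesterases Enpp6 and Gdpd3 reached 0.04 and 0.25 FPKM. Pld4 reached 0.12 FPKM, Pcyt1b 0.13, Pld1 0.15, the cytosolic phospholipase gene Pla2g4a 0.40 and Mboat2 0.78. Between replicates, the median coefficient of variation of the tested genes was 6.74% with vehicle and 10.2% with LPC, against 6.48% and 10.6% over all tested genes.

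**Figure D2:**
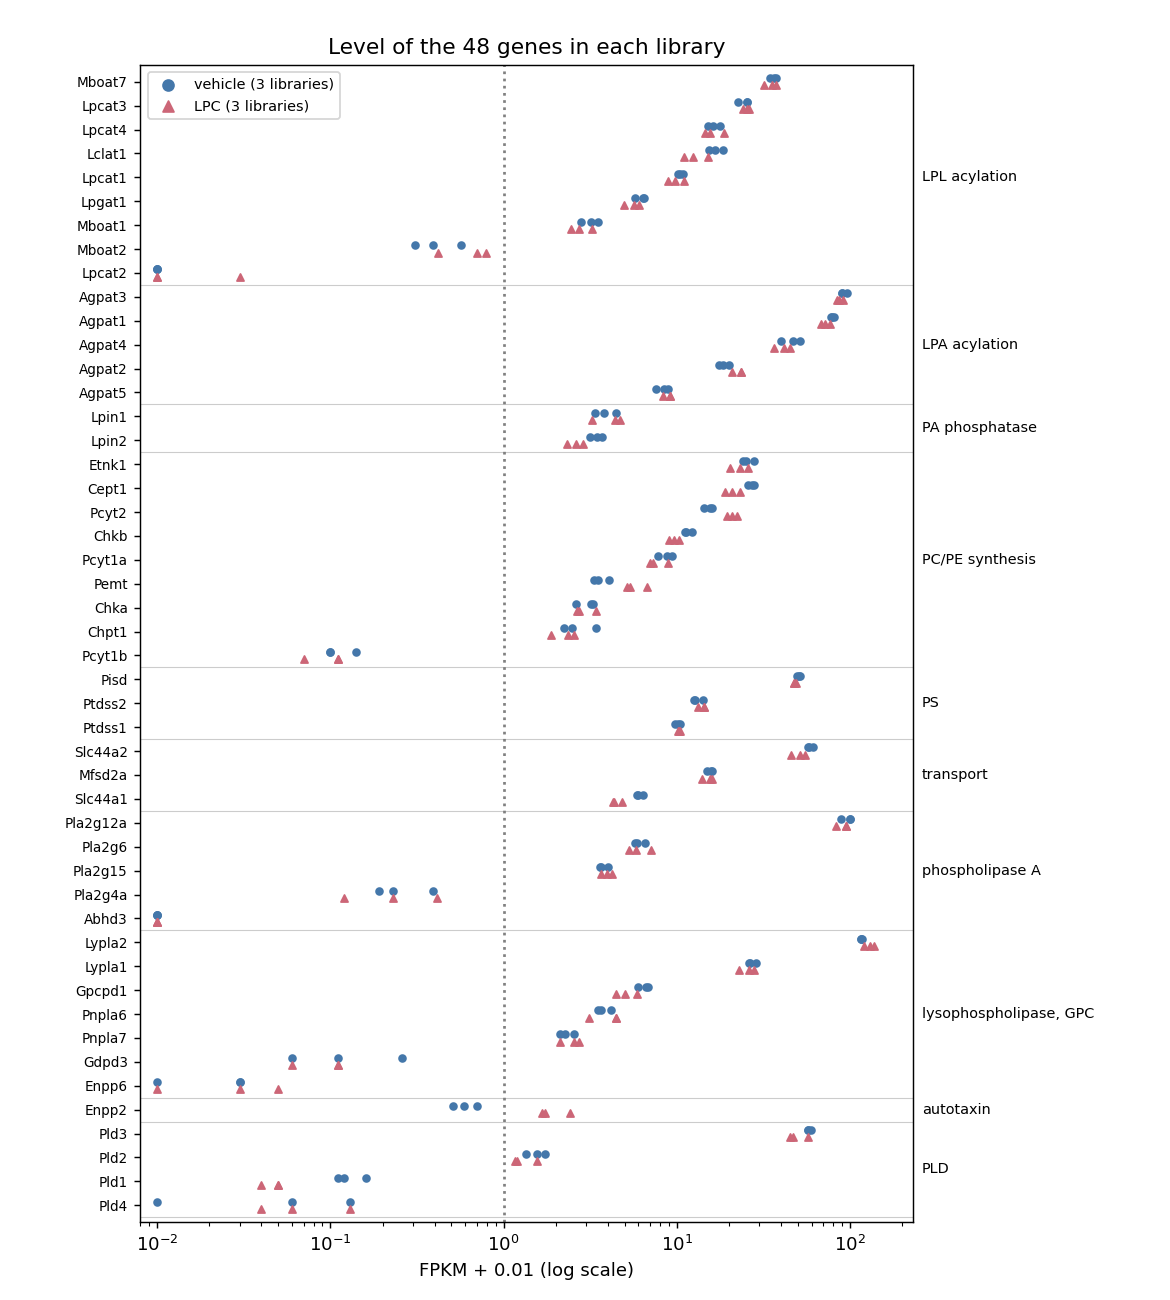
FPKM + 0.01 on a log scale for each of the 48 genes in the 3 vehicle libraries (blue circles) and the 3 LPC libraries (red triangles), ordered by mean level within each role. The dotted line stands at 1 FPKM, and the genes left of it in all libraries are the 9 that were not tested. Enpp2 lies left of the line with vehicle and right of it with LPC.

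Autotaxin transcripts were low throughout, under 1 FPKM with vehicle and above it with LPC. Enpp2 (chr15:54838901-54952789, GRCm38.p6) was at 0.58, 0.69 and 0.50 FPKM in vehicle replicates 1 to 3, and at 2.40, 1.73 and 1.66 FPKM in LPC replicates 1 to 3. The groups did not overlap, and LPC replicate 1 was the highest. The mean moved from 0.59 ± 0.0954 to 1.93 ± 0.409 FPKM (SD, n = 3 each), a 3.27-fold ratio of means. On the log2(FPKM + 1) scale the rise was 0.87 (SE 0.11, limma adjusted p = 6.7e-04), and with a pseudocount of 0.1 it was 1.55. Enpp2 passed the filter through its LPC libraries alone, so it had to differ to be tested. The fit with no filter on low values does not carry that choice, and its limma adjusted p was 0.0251. At the estimated depth these values stand for about 26 to 36 reads in each vehicle library and 85 to 125 in each LPC library. Of 6 markers of endothelial and stromal cells, which are known to make autotaxin, 5 were under 1 FPKM in every library and the other, Pecam1, did not pass. Their summed level was 5.48 to 6.33 FPKM with vehicle and 6.14 to 7.27 FPKM with LPC, and the defining endothelial gene Cdh5 was at most 0.01 FPKM. The part of such cells in the result was not tested.

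Of the 9 genes of choline and ethanolamine phospholipid synthesis, 2 rose, 1 fell, 5 did not pass and Pcyt1b was not tested. Over all tested genes 5.82% rose and 7.91% fell, and whether the calls gather in this pathway was not tested. The first step is carried out by kinases. Choline kinase transcripts were mostly Chkb, at 73.9% to 82.5% of the summed FPKM of Chka and Chkb in each library. Chkb was at 11.2, 11.3 and 12.3 FPKM with vehicle and at 10.3, 9.69 and 9.06 FPKM with LPC. The groups did not overlap, but the log2 change of -0.24 did not pass (limma adjusted p = 0.11). Removal of trends with GC share and transcript length gave -0.28 and an adjusted p of 0.0318. Chka did not pass (log2 change -0.04, 95% interval -0.28 to 0.20). The ethanolamine kinase Etnk1 had the highest mean of the 9 genes over the 6 libraries (24.4 FPKM, against 24.0 for Cept1). It was at 25.7 ± 1.99 FPKM with vehicle and 23.1 ± 2.70 with LPC, and did not pass (log2 change -0.15, interval -0.37 to 0.07).

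The second step couples the phosphorylated head group to CTP and is held to set the pace of both branches. Pcyt2, the enzyme of the ethanolamine branch (chr11:120610062-120617947), was at 15.7, 14.4 and 16.01 FPKM in vehicle replicates 1 to 3. In LPC replicates 1 to 3 it was at 22.2, 19.6 and 20.7 FPKM, so every LPC library lay above every vehicle library. The rise from 15.3 ± 0.873 to 20.8 ± 1.30 FPKM (SD, n = 3 each) had a log2 change of 0.42 (SE 0.09, limma adjusted p = 0.0113). It was lost in 1 of 13 alternative fits, without vehicle replicate 2 (adjusted p = 0.0664). Pcyt1a, the enzyme of the choline branch, held 98.4% to 99.1% of its family's FPKM. It was at 8.64 ± 0.818 FPKM with vehicle and 7.72 ± 1.03 with LPC and did not pass (log2 change -0.15, interval -0.38 to 0.09).

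The last step joins the CDP-activated head group to diacylglycerol. Cept1, which accepts both CDP-choline and CDP-ethanolamine, lies at chr3:106502260-106547802 and made up 89.1% to 92.4% of the summed FPKM of Cept1 and the choline-specific Chpt1. Its level was 27.9, 25.7 and 27.3 FPKM in vehicle replicates 1 to 3 and 19.1, 23.1 and 20.9 FPKM in LPC replicates 1 to 3. All LPC libraries lay below all vehicle libraries, with LPC replicate 2 the nearest. Mean Cept1 was 27.0 ± 1.15 FPKM with vehicle and 21.0 ± 2.04 with LPC (SD, n = 3 each), and Cept1 fell by 0.35 on the log2 scale (SE 0.09, limma adjusted p = 0.0288). The call was lost with no filter on low values (adjusted p = 0.0737), without vehicle replicate 1 (0.131), 2 (0.0642) or 3 (0.0741), and without LPC replicate 1 (0.0995). Chpt1 was at 2.70 ± 0.610 FPKM with vehicle and 2.26 ± 0.347 with LPC and did not pass.

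Pemt, the methyltransferase that turns phosphatidylethanolamine into phosphatidylcholine, lies at chr11:59970614-60046561. It was at 4.06, 3.31 and 3.49 FPKM in vehicle replicates 1 to 3 and at 5.13, 5.33 and 6.76 FPKM in LPC replicates 1 to 3. Every LPC library was higher than every vehicle library, with LPC replicate 3 the highest. The mean was 3.62 ± 0.392 FPKM with vehicle and 5.74 ± 0.889 with LPC (SD, n = 3 each), a rise of 0.54 on the log2 scale (SE 0.11, limma adjusted p = 0.00909). Only the fit with no filter on low values ended the call among the 12 alternatives that included Pemt (adjusted p = 0.0699).

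Ratios within a library do not depend on its scaling and are given as descriptions. They do not remove the trend of the log2 change with transcript GC share (r = 0.24). That share was 58.6% for Pcyt2 and 56.1% for Pemt, against 49.2% for Pcyt1a and 43.3% for Cept1. The ratio of Pcyt2 to Pcyt1a was 1.78, 1.53 and 2.07 with vehicle and 3.04, 2.20 and 2.97 with LPC. That of Pcyt2 to Cept1 was 0.561, 0.559 and 0.587 with vehicle and 1.16, 0.846 and 0.994 with LPC. Pemt stood to Cept1 as 0.145, 0.129 and 0.128 with vehicle and as 0.269, 0.230 and 0.324 with LPC. For these 3 ratios the groups did not overlap, while those of Chka to Chkb overlapped. Each of the first 3 ratios holds at least 1 gene already called, so they add no separate test.

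**Figure D3:**
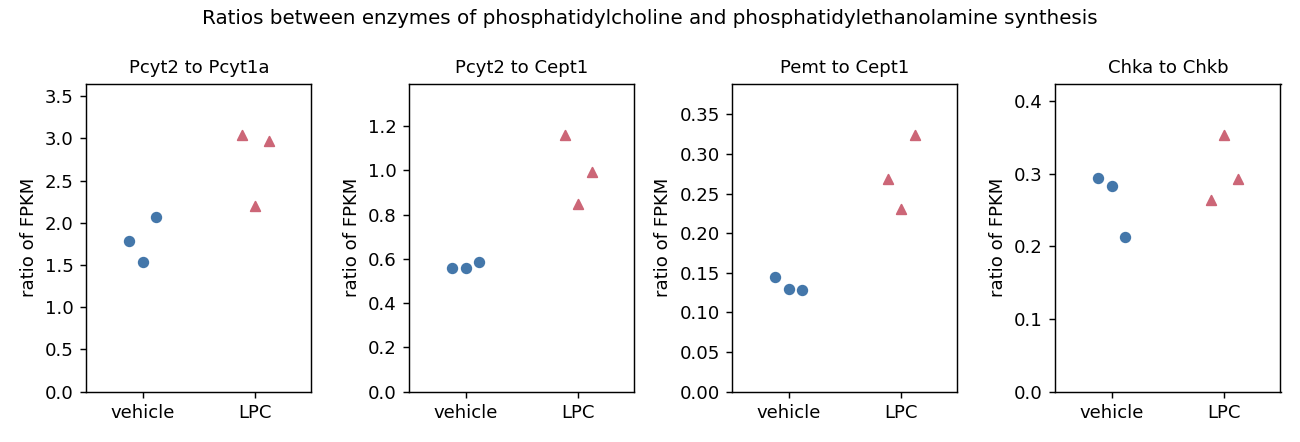
Ratio of FPKM between the named enzymes in each of the 3 vehicle libraries (blue circles) and 3 LPC libraries (red triangles), with each axis starting at 0. The ratios of Pcyt2 to Pcyt1a, Pcyt2 to Cept1 and Pemt to Cept1 are higher in all LPC libraries, and those of Chka to Chkb overlap.

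Of the 2 choline transporter genes in the set, Slc44a1 fell and Slc44a2 did not pass. Vehicle and LPC libraries of both did not overlap, as for the 20.7% of all tested genes that were lower in every LPC library. Slc44a1, which encodes a choline transporter of the plasma membrane (chr4:53440387-53622478), was at 5.94, 5.86 and 6.40 FPKM with vehicle and at 4.31, 4.80 and 4.30 FPKM with LPC. LPC libraries lay below vehicle libraries with a gap between the groups wider than the spread within either. Means were 6.07 ± 0.291 FPKM with vehicle and 4.47 ± 0.286 with LPC (SD, n = 3 each), and Slc44a1 fell by 0.37 on the log2 scale (SE 0.10, limma adjusted p = 0.0236). It was lost with no filter on low values (adjusted p = 0.0737), without vehicle replicate 1 (0.0833), 2 (0.0689) or 3 (0.0818), and without LPC replicate 1 (0.0774). Slc44a2, a related choline transporter, held 89.9% to 92.8% of the summed FPKM of the 2 genes. It was at 57.7, 61.2 and 57.2 FPKM with vehicle and at 55.2, 51.2 and 45.4 FPKM with LPC. The log2 change of -0.21 did not pass (interval -0.41 to -0.02, adjusted p = 0.139). Mfsd2a, which carries lysophosphatidylcholine into cells, was at 15.6 ± 0.565 FPKM with vehicle and 15.1 ± 1.09 with LPC (log2 change -0.04, interval -0.24 to 0.16, not passing).

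Of the 9 genes whose enzymes put an acyl chain back on a lysophospholipid, 7 were tested, and Lclat1 fell and the other 6 did not pass. Lpcat3, which favours polyunsaturated chains, held 47.8% ± 3.1 of the summed FPKM of the 4 Lpcat genes with vehicle and 49.1% ± 1.2 with LPC (SD, n = 3 each). It was at 24.6 ± 1.65 FPKM with vehicle and 25.2 ± 1.07 with LPC (log2 change 0.04, interval -0.15 to 0.23). Lpcat1 and Lpcat4 did not pass (-0.08, interval -0.29 to 0.13, and -0.01, interval -0.24 to 0.22). The highest of the 9 was Mboat7, which attaches arachidonic acid to lysophosphatidylinositol, at 36.1 ± 1.38 FPKM with vehicle and 34.8 ± 2.82 with LPC (-0.06, interval -0.25 to 0.14). Mboat1 and Lpgat1 each had a log2 change of -0.13 and did not pass.

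Lclat1, named for its action on lysocardiolipin, lies at chr17:73107985-73243368. It was at 16.7, 18.6 and 15.4 FPKM in vehicle replicates 1 to 3 and at 12.3, 15.2 and 11.1 FPKM in LPC replicates 1 to 3. The groups were barely apart, with LPC replicate 2 just under vehicle replicate 3. Its mean was 16.9 ± 1.58 FPKM with vehicle and 12.9 ± 2.10 with LPC (SD, n = 3 each), and Lclat1 fell by 0.38 on the log2 scale (SE 0.12, limma adjusted p = 0.0461). Of 13 alternative fits, 8 ended this call. They were no filter (adjusted p = 0.146), quantile normalization (0.0548), median centring (0.0616), removal of the GC and length trends (0.0663), and leaving out vehicle replicate 1 (0.131) or 2 (0.184) or LPC replicate 1 (0.136) or 3 (0.107).

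**Figure D4:**
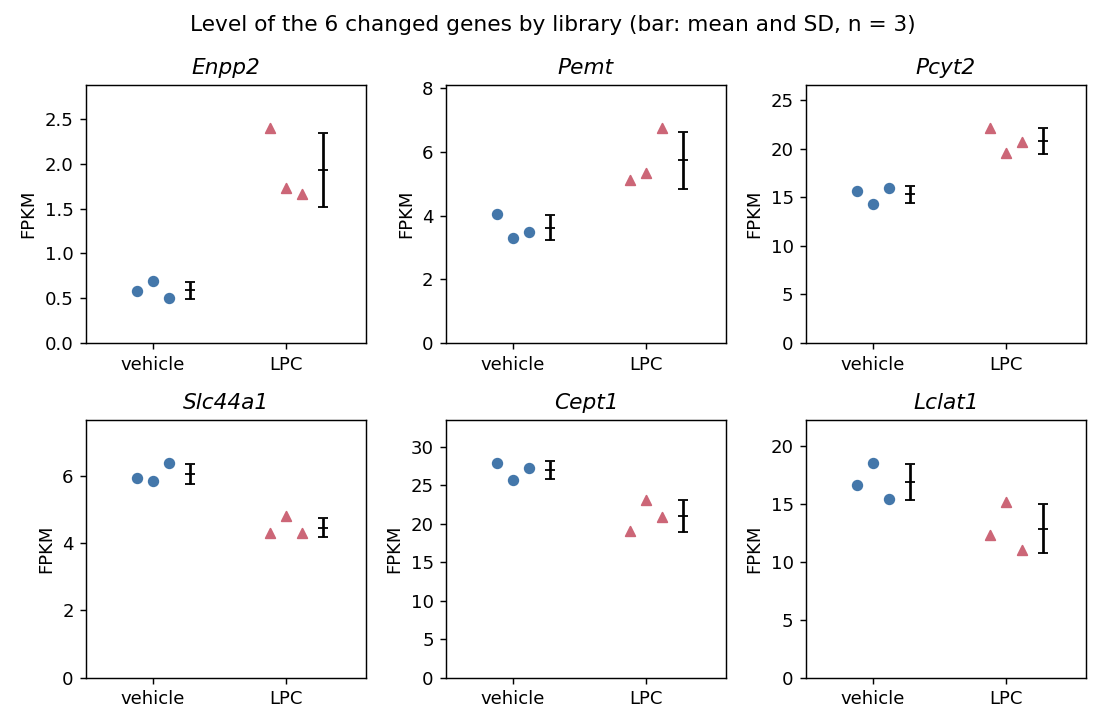
FPKM of the 6 genes that passed the test in each library, with vehicle as blue circles and LPC as red triangles in the order of replicate number, and with the mean and SD of each group beside them (n = 3). Enpp2, Pemt and Pcyt2 are higher and Slc44a1, Cept1 and Lclat1 lower in every LPC library, and the smallest gap is that of Lclat1.

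The called genes differed in GC share in the direction of the trend over all genes, except Enpp2. The GC share of their transcripts was 56.1% for Pemt and 58.6% for Pcyt2, which rose, and 48.7% for Slc44a1, 43.3% for Cept1 and 48.3% for Lclat1, which fell. Enpp2 had 46.0%. With the GC and length trends of each library removed, the log2 changes were 0.97 for Enpp2 (limma adjusted p = 0.00206), 0.48 for Pemt (0.0103) and 0.37 for Pcyt2 (0.00428). Those of Slc44a1 and Cept1 were -0.31 (0.0159) and -0.27 (0.0226). The calls of Pemt, Pcyt2, Slc44a1 and Cept1 therefore held in that fit, and that of Lclat1 did not. The call of Enpp2 held too, but Enpp2 was in that fit through its LPC libraries alone. For Enpp2 that fit is no separate support.

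Sequence upstream of the start site is given as a description for Pemt, which rose, and for Slc44a1 and Lclat1, which fell. The GC share that went with the change above was that of transcripts and not of upstream sequence. No window was available for Enpp2 and Pcyt2, which also rose. Cept1, which also fell, is not printed. The 132 bases of its window outside an exon of Dram2 had a GC share of 65.2%, 11 CpG and no CCAAT or GC box. The runs below are from RefSeq (GRCm38.p6), 5′ to 3′ on the gene's strand, and end just before the annotated start, or for Slc44a1 just before the first base of the gene's RefSeq span. They cover chr11:60040189-60040438 on the minus strand for Pemt, chr4:53440163-53440386 on the plus strand for Slc44a1 and chr17:73107735-73107984 on the plus strand for Lclat1. The Pemt run lies inside the span of the gene, before an internal start. Capitals mark a CCAAT box (CCAAT) or a GC box (GGGCGG). All motifs were searched on both strands, and none of them holds another.
Pemt: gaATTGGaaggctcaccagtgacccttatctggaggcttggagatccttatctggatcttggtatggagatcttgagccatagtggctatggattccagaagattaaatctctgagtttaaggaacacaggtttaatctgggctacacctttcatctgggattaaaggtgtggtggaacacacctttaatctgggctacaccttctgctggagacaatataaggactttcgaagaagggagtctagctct
Slc44a1: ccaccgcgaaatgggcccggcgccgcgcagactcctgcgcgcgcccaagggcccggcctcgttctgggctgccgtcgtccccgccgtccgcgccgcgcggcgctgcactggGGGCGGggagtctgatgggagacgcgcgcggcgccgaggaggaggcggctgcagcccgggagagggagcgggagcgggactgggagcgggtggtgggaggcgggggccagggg
Lclat1: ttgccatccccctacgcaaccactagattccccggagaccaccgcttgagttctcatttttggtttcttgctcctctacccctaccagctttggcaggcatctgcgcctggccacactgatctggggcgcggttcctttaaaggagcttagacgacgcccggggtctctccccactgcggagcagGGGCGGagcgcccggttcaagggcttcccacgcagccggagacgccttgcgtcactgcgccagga
The Pemt run had a GC share of 44.8% and 1 CpG, against 79.9% and 34 in the 224 bases of Slc44a1 and 62.4% and 18 in the 250 bases of Lclat1. Pemt held a CCAAT box, and the other two a GC box each. The median GC share was 61.6% over the 41 member windows of 250 bases and 58.0% over 14150 genes. A GC box was found in 27 of the 41 windows (65.9%, against 50.5% of all), a CCAAT box in 18 (43.9%, against 36.5%), an E-box (CACGTG) in 2 (4.9%, against 7.4%) and a TATA box (TATAAA) in 2 (4.9%, against 8.7%). A sterol regulatory element (TCACNCCAC) was found in 2, those of Pcyt1a and Pla2g12a (4.9%, against 1.0%). A match is a description of letters and not a binding site.

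None of the 5 acyltransferases that turn lysophosphatidic acid into phosphatidic acid passed in limma, with 1 higher at an unadjusted p under 0.05. Agpat3, the highest, was at 91.6 ± 3.47 FPKM with vehicle and 87.4 ± 3.41 with LPC (log2 change -0.07, interval -0.25 to 0.11). Agpat2, known for its part in fat cells, was at 18.5, 17.5 and 20.1 FPKM with vehicle and at 23.4, 20.9 and 23.6 FPKM with LPC. The groups did not overlap, and the log2 change of 0.26 did not pass (limma adjusted p = 0.0763, and 0.0361 without LPC replicate 2). Its share of the summed FPKM of the 5 genes was 7.4% to 7.9% with vehicle and 9.5% to 9.9% with LPC. Agpat1 was at 77.97, 80.6 and 78.9 FPKM with vehicle and at 76.3, 68.3 and 72.1 FPKM with LPC, with no overlap and a log2 change of -0.13 (adjusted p = 0.311). Agpat4 and Agpat5 had log2 changes of -0.16 and 0.09 and did not pass.

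Phosphatidic acid is turned into diacylglycerol, the acceptor in the last step above, by lipins. Lpin1 and Lpin2 did not pass in limma, with Lpin2 lower at an unadjusted p under 0.05. Lpin2 was at 3.69, 3.47 and 3.15 FPKM with vehicle and at 2.60, 2.88 and 2.32 FPKM with LPC, with no overlap (log2 change -0.30, limma adjusted p = 0.0649, and 0.0376 without LPC replicate 2). Lpin1 was at 3.85 ± 0.539 FPKM with vehicle and 4.10 ± 0.773 with LPC. As a share of the 3 lipin genes, Lpin2 was 43.7% to 49.3% with vehicle and 36.5% to 41.4% with LPC.

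Phosphatidylserine is made by exchange of the head group of other phospholipids, and Pisd turns it into phosphatidylethanolamine in mitochondria. All 3 genes of this step had log2 changes under 0.1 in size, and none passed in limma, with 0 at an unadjusted p under 0.05. Pisd was at 51.0, 49.4 and 51.5 FPKM with vehicle and at 47.8, 48.7 and 47.2 FPKM with LPC. These libraries did not overlap, on a log2 change of -0.08 (interval -0.25 to 0.10). Ptdss1 and Ptdss2 had log2 changes of 0.02 and 0.09.

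The phospholipase A genes, whose products release lysophospholipids, showed no call in limma and 0 at an unadjusted p under 0.05. Pla2g12a, a secreted enzyme, held 89.3% to 91.4% of the summed FPKM of the 4 Pla2g genes in the set, and was at 96.8 ± 6.64 FPKM with vehicle and 91.4 ± 6.80 with LPC (log2 change -0.08, interval -0.28 to 0.12). The calcium-independent Pla2g6 was at 6.06 ± 0.444 and 6.08 ± 0.927 FPKM. The lysosomal Pla2g15 was at 3.74 ± 0.211 and 3.95 ± 0.281 FPKM.

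Of the 7 genes that take lysophospholipids or glycerophosphocholine further apart, 5 were tested and none passed in limma, with 1 lower at an unadjusted p under 0.05. Lypla2 was at 115, 116 and 117 FPKM with vehicle and at 137, 121 and 131 FPKM with LPC. The groups did not overlap, and the spread was wider with LPC (log2 change 0.15, interval -0.03 to 0.34, adjusted p = 0.253). Lypla1 was at 27.1 ± 1.45 and 25.6 ± 2.65 FPKM. Gpcpd1, which frees glycerol phosphate from glycerophosphocholine, was at 5.96, 6.79 and 6.60 FPKM with vehicle and at 5.0, 5.88 and 4.45 FPKM with LPC. Its groups were just apart (log2 change -0.29, adjusted p = 0.0892, and 0.0288 without LPC replicate 2). Pnpla6 and Pnpla7, which deacylate lysophosphatidylcholine, had log2 changes of 0.06 and 0.07 and did not pass.

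Phospholipase D cuts phosphatidylcholine into choline and phosphatidic acid. The 2 genes of this activity were low. Pld2 was at 1.54 ± 0.195 FPKM with vehicle and 1.30 ± 0.220 with LPC and did not pass. Pld1, not tested for its low level, was at 0.11, 0.10 and 0.15 FPKM with vehicle and at 0.04, 0.03 and 0.04 FPKM with LPC, which at the estimated depth stand for 8 to 12 and 2 to 3 reads. In the fit with no filter its limma adjusted p was 0.0507. Pld3, whose product is known as a lysosomal nuclease despite the name, held 96.9% to 97.5% of the family's FPKM. It was at 57.9 ± 1.28 FPKM with vehicle and 49.7 ± 6.85 with LPC, and LPC replicate 1 overlapped the vehicle libraries (log2 change -0.22, adjusted p = 0.151). Its adjusted p was 0.0444 without LPC replicate 1 and 0.0344 with the GC and length trends removed.

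Neighbouring genes of phospholipid metabolism, taken as 77 genes in 5 lists by role, gave a share near the background as well. Of them, 76 were found and 47 tested, and 2 rose, 4 fell and 41 did not pass (12.8% called, median log2 change -0.05). Mgll, which breaks down monoacylglycerol, rose from 7.98 ± 1.40 to 11.7 ± 0.398 FPKM (log2 change 0.51, SE 0.11, limma adjusted p = 0.0118). Abhd16a, a phosphatidylserine lipase, rose from 7.76 ± 0.329 to 12.1 ± 2.37 FPKM (0.56, SE 0.13, adjusted p = 0.0118). Both rises were lost without LPC replicate 1 (adjusted p = 0.0506 for Mgll and 0.0672 for Abhd16a) and with no filter (0.0723 and 0.0828).

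The genes that fell include 2 diacylglycerol kinases, Dgka and Dgkh, of a family that turns diacylglycerol back into phosphatidic acid. Of all tested genes 7.91% fell, and whether the calls gather in this family was not tested. Dgkz, another kinase of this family, was at 53.3 ± 1.96 FPKM with vehicle and 48.1 ± 6.45 with LPC. It did not pass (log2 change -0.15, limma adjusted p = 0.321), and nor did Dgkd, Dgke and Dgkq. Dgka was at 56.2, 58.8 and 57.2 FPKM with vehicle and at 45.5, 45.6 and 40.2 FPKM with LPC (log2 change -0.39, SE 0.09, limma adjusted p = 0.0121). Its fall was lost without vehicle replicate 1 (adjusted p = 0.054) or 2 (0.063). Dgkh fell from 13.9 ± 0.951 to 9.58 ± 2.51 FPKM (-0.52, SE 0.15, adjusted p = 0.0335), and LPC replicate 3 was its lowest library at 6.72 FPKM. The phosphodiesterase gene Gdpd5 fell by 0.48 on the log2 scale (adjusted p = 0.0412) and the lipase gene Lipg by 0.33 (adjusted p = 0.0482). The call of Dgkh was lost with no filter (adjusted p = 0.155), with median centring (0.0575), and without vehicle replicate 1 (0.0922) or 2 (0.0772) or LPC replicate 1 (0.0611). That of Gdpd5 was lost in 8 of 12 alternative fits, among them those without any of the libraries except LPC replicate 2 (adjusted p up to 0.121 there). That of Lipg was lost in 10 of 12, among them the fit without each of the 6 libraries (up to 0.171). Without vehicle replicate 1 or 2, 0 of the neighbouring genes fell in limma, with 5 and 4 lower at an unadjusted p under 0.05. Over all tested genes, 1332 and 1230 were lower at that level in those fits. Leaving out LPC replicate 1 gave 1 neighbouring gene that fell, and leaving out vehicle replicate 3 or LPC replicate 3 gave 2. At the estimated depth and a median transcript length of 446 bases, Gdpd5 comes to about 16 to 39 reads in each library. A longer transcript would give more reads.

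The other 3 lists had no call in limma. Selenoi, which joins CDP-ethanolamine to diacylglycerol and so follows Pcyt2, was at 7.43 ± 0.362 FPKM with vehicle and 6.66 ± 0.796 with LPC (log2 change -0.14, interval -0.37 to 0.08). Flvcr1, which is known to carry choline, was at 7.45 ± 0.293 and 7.76 ± 0.701 FPKM. Of the 8 tested genes of glycerol phosphate acylation and ether lipid synthesis, 0 had an unadjusted p under 0.05. Of the 7 of CDP-diacylglycerol, inositol lipid and cardiolipin synthesis, 1 was higher and 1 lower at that level.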

How the data were processed

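The authors deposited gene values as FPKM from RSEM, after sequencing on a BGISEQ-500 and alignment to GRCm38 by Bowtie2, per the labels' protocols. Versions: not given in the sources used here. RSEM divides reads shared by near-identical genes by estimate. The total number of reads is not part of the files. Depth was estimated from the spacing of low FPKM values of genes with 1 transcript, where values lay on average 0.180 to 0.185 reads from a whole number (0.236 or more with lengths shuffled). Read numbers derived from it are approximate and use the median length of a gene's protein-coding GENCODE transcripts. Where many of these transcripts are short, the read numbers may be too low. No count test was run. Gene symbols turned into dates (24) were restored, and 4 listed genes under an older symbol were matched, through RefSeq gene identifiers (99.3% matched). Coordinates and upstream sequences are from RefSeq (GRCm38.p6), and GC share and length from GENCODE M21 (98.7% of tested genes). Promoter windows were given for 41 of the 48 genes, and the part of a window that an annotated exon covers is not printed.

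All 6 libraries entered a limma-trend fit (limma 3.58.1, R 4.3.3) with group as the only term, on log2(FPKM + 1), with Benjamini-Hochberg adjustment, and was tested on simulated data. Alternatives were a pseudocount of 0.1, no filter (genes at 0 in every library left out), a mean FPKM of 5 or more, quantile normalization, median centring, a replicate block, removal of GC and length trends by splines with 4 degrees of freedom, and each library left out. The genes, their roles, the neighbouring lists and the rule for naming were chosen with earlier results of these data known. The rule named every gene of the set, gave all libraries for genes that passed or did not overlap, the highest gene of each role, and up to 4 called genes of each neighbouring list.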

Additional observations from a re-analysis of the deposited data

How the results depend on the processing

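Of the alternative values for tested genes of the set, 465 kept their side of the threshold, 20 lost a call, 11 gained one and 0 reversed among called genes. Of 420 alternative values of genes that did not pass, 27 changed sign. Over all genes, 1392 calls became 464 with no filter and 513 to 2026 with single libraries left out. Among all calls, 42.4% were higher, and with median centring 53.1%. In the set, 3 genes that rose became 1 with a mean FPKM of 5 or more, since Enpp2 and Pemt were not in that fit. The 3 that fell became 0 with no filter in limma (8 lower at an unadjusted p under 0.05) and 0 to 5 with libraries left out. Of the neighbouring genes, 2 that rose became 0 with no filter (5 higher at an unadjusted p under 0.05) and 0 to 2 with libraries left out, the 0 being without LPC replicate 1 (3 higher at an unadjusted p under 0.05). The 4 that fell became 1 with no filter, 2 with a mean of 5 or more, 2 with quantile normalization, 1 with median centring and 0 to 5 with libraries left out. Fits without a library have fewer samples, and the fit with no filter tests 16899 genes. Of those 16899, 1537 were higher and 2066 lower at an unadjusted limma p under 0.05. Without LPC replicate 1, 1103 of all 10138 tested genes were higher at that level. The cause of the other losses was not tested.

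With a replicate block, all genes gave 2841 calls, the set 7 that fell and the neighbours 8 that fell. The main fit did not pair libraries by number, and whether they are paired was not settled. Deviations of same-numbered libraries correlated at 0.02, 0.56 and 0.41 for replicates 1 to 3. Vehicle replicate 2 with LPC replicate 3 gave -0.5, and vehicle replicate 3 with LPC replicate 2 gave -0.45. Vehicle replicate 1 correlated at 0.02, -0.09 and 0.06 with LPC replicates 1 to 3, so not best with its own number. Deviations from a group mean cancel out within the group, so these correlations are tied together and are not separate observations. Depth limits the 9 untested genes and, among those tested, Enpp2 and the neighbouring gene Plpp1. The lowest libraries of Enpp2 and Plpp1 rest on an estimated 26 and 32 reads. For Chpt1, Pnpla6, Pnpla7 and the neighbouring gene Gdpd5 the estimates were 34, 39, 29 and 16 reads. They used median transcript lengths of 947.5, 668.5, 721 and 446 bases, and longer transcripts would give more reads.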

Other observations

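Proteins that move phospholipids between membranes and between the leaflets of a membrane were looked at after the results above were seen. Of 32 such genes, 31 were found and 27 tested, and 0 rose and 4 fell in limma (14.8% called, against 13.7% of all tested genes), with 2 higher and 4 lower at an unadjusted p under 0.05. Over all 10138 tested genes, 1237 were higher and 1810 lower at that unadjusted level. Of the 10 tested genes of flippases, which carry phospholipids to the inner leaflet, 3 fell, against 7.91% of all tested genes. Whether the calls gather among flippase genes was not tested. The flippase gene Atp11b fell from 37.4 ± 1.18 to 28.7 ± 2.66 FPKM (-0.37 on the log2 scale, limma adjusted p = 0.0182; SDs over 3 libraries each), and Atp8b2 from 21.3 ± 0.737 to 16.6 ± 1.49 FPKM (-0.34, adjusted p = 0.0298). Tmem30a, the subunit that most flippases need to leave the endoplasmic reticulum, was at 29.97, 30.4 and 31.5 FPKM with vehicle and at 23.4, 26.8 and 22.6 FPKM with LPC (-0.33, adjusted p = 0.0329). The phosphatidylinositol transfer gene Pitpnc1 fell from 20.8 ± 1.27 to 15.3 ± 1.65 FPKM (-0.42, adjusted p = 0.0148). Of the 7 tested scramblase genes, 0 were called in limma and 0 had an unadjusted p under 0.05.

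These calls also rest on single libraries. Without vehicle replicate 1 the adjusted p was 0.139 for Atp8b2, 0.0757 for Atp11b, 0.105 for Tmem30a and 0.0523 for Pitpnc1, and without vehicle replicate 2 it was 0.0922, 0.0862, 0.106 and 0.0755. Without LPC replicate 1 it was 0.0873 for Atp8b2, 0.0943 for Tmem30a and 0.0517 for Pitpnc1, while the call of Atp11b held. Atp8b2 and Tmem30a also lost their calls without vehicle replicate 3 (0.0616 and 0.097) and without LPC replicate 3 (0.0522 and 0.0586). With no filter on low values the 4 genes had adjusted p-values of 0.0571 to 0.0719, and with the GC and length trends removed Tmem30a had 0.0519.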
